A study of Sus scrofa with 4 samples.

Results

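The transcripts described here are those of the USP, UCH and OTU deubiquitinases of the pig, taken as every row of the expression table whose gene name begins with USP, UCHL, OTUD or OTUB followed by a digit. One further row of that pattern was left out, which leaves 59 of 35248 rows: 46 USP, 3 UCH and 10 OTU names, each present once. RNA sequencing was done on parthenogenetic porcine 4-cell embryos, in which an electric pulse to the oocyte takes the place of sperm, so that there is no paternal genome. The 2 Bobcat339 samples received 50 µM Bobcat339, a small molecule used to inhibit the TET enzymes, and the 2 control samples received DMSO, for which the labels also give 50 µM. All 4 were exposed to cytochalasin B after activation and then cultured for 48 h in PZM-3 medium; how much of that time the compound was present is not stated. The libraries were made by Smart-seq2 from TRIzol-extracted RNA; the sources used here do not state how many embryos went into each. The comparison asks how the inhibitor alters gene expression, here of the enzymes that remove ubiquitin.

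Deubiquitinases are proteases that cleave ubiquitin from proteins or from other ubiquitin molecules. USP, UCH and OTU enzymes are 3 families of cysteine proteases with distinct folds. They rescue proteins from degradation, return ubiquitin to the free pool and erase ubiquitin marks on histones, repair factors and receptors. In early embryos, where stored maternal proteins are cleared while the zygotic genome is switched on, protein turnover by ubiquitin is part of the transition. USP6NL matches the name pattern but encodes a GTPase-activating protein for a RAB GTPase, not a protease. USP39, a splicing factor, lacks the residues needed for catalysis.

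The libraries held 14681221 and 13568525 counts for Bobcat339 and 14390560 and 13852262 for the control. A level of 3 counts, the most that a count of 0 allows, corresponds to 0.204 to 0.221 counts per 1e6 counts (CPM); it covers counting error only. No member was at 0 in any library. Of the 11 oocyte and early embryo markers 10 had a row, with means from 0.624 FPKM for ZAR1 to 3289 FPKM for BMP15 (FPKM are fragments per kilobase per 1e6 counts, the authors' unit). Of the 20 cumulus and granulosa cell markers 18 had a row, and 9 of these had enough counts to be tested. The summed level of the 18 was 118 and 158 CPM with Bobcat339 against 126 and 138 CPM in the controls. AMH was at 0 and FSHR at a mean of 0.00806 FPKM. VIM, VCAN and COL1A1 of that list were detected, at means of 6.08, 4.47 and 1.46 FPKM. Their log2 fold changes, Bobcat339 over control, were 0.08, 0.09 and 0.57. Of the 9 tested markers of that list 6 were below 0 and 3 above, with a median of −0.15. The lowest of them was TNFAIP6. TNFAIP6 had 0.477 and 0.291 CPM with Bobcat339 against 1.72 and 1.57 CPM in the controls, a log2 fold change of −2.07 (SE 0.71; edgeR adjusted p = 0.999); the part of such cells in the results was not tested. Whether the replicates were separate cultures is not stated in the labels, so each p reflects the spread of these samples alone, possibly a technical one.

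Levels of the 59 transcripts ran from a mean of 0.0599 FPKM for USP21 to 119 FPKM for USP10, with a median of 9.37 FPKM. Above 50 FPKM were 6 members, 22 averaged between 10 and 50, 20 between 1 and 10, and 11 below 1. The 12 highest members held 65.1% of the members' summed mean FPKM. They were USP10, OTUB1, UCHL1, USP38, USP14, USP44, OTUD6B, USP29, USP45, USP16, USP9X and USP7. The same 12 led when the Bobcat339 libraries or the control libraries were ranked alone, and 9 of them were also among the 12 highest by CPM, which takes no account of length. Members together took 0.53% and 0.506% of the counts in the Bobcat339 libraries and 0.516% and 0.541% in the control libraries.

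**Figure D1:**
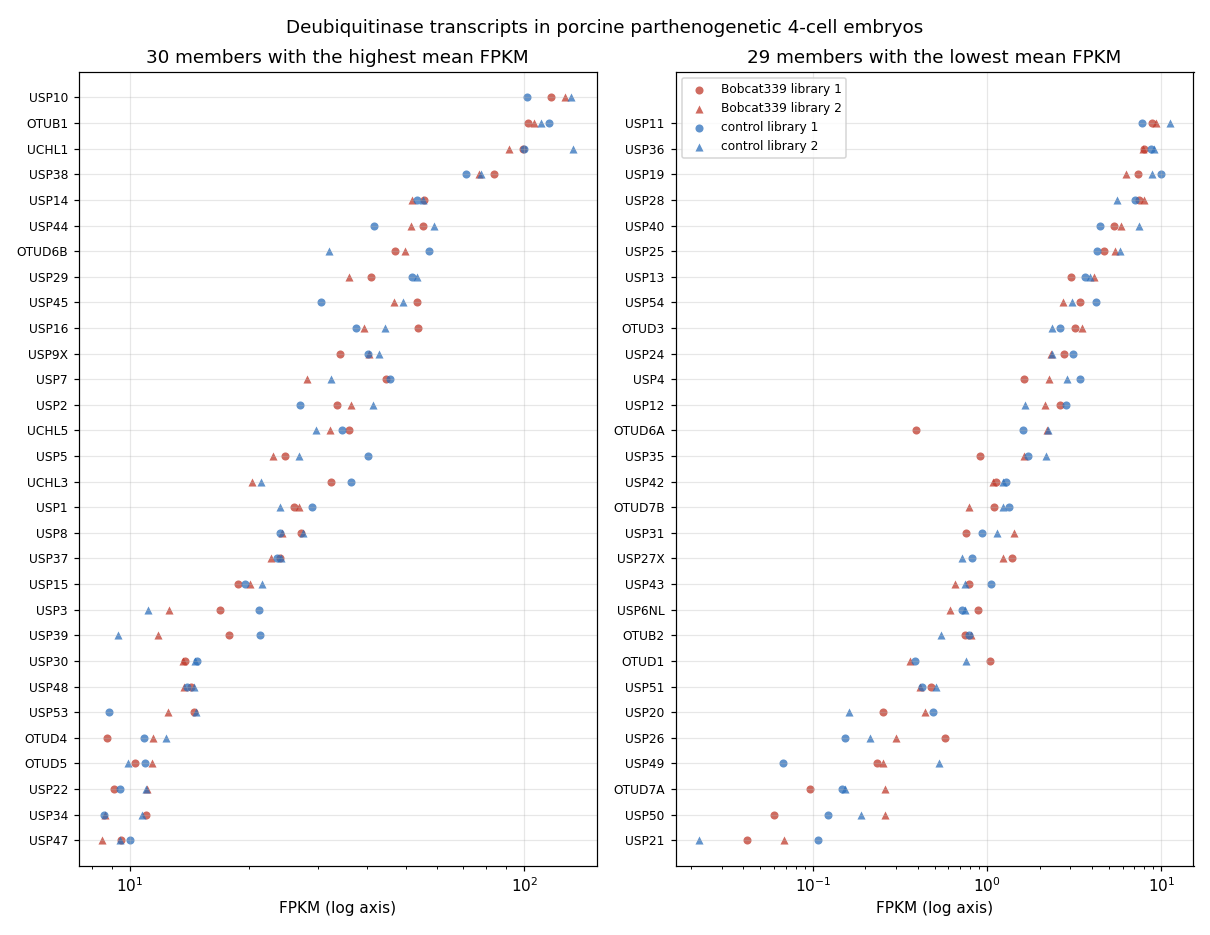
FPKM on a log axis (horizontal) for each of the 59 members (vertical, ordered by mean FPKM), with 1 point for each of the 2 Bobcat339 and 2 control libraries. Levels run from a mean of 119 FPKM for USP10 to 0.0599 FPKM for USP21, and the points of the 2 groups are mixed along most lines.

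USP10, which binds the stress granule proteins G3BP1 and G3BP2 and acts on p53, was the most abundant. It stood at 117 and 127 FPKM in the Bobcat339 libraries and at 102 and 131 FPKM in the control libraries. OTUB1, an enzyme for lysine-48 ubiquitin chains that also blocks the conjugating enzyme UBE2N without catalysis, had 102 and 106 FPKM in Bobcat339 embryos and 116 and 110 FPKM in control embryos. UCHL1, known from neurons and germ cells as a keeper of free ubiquitin, had 99.5 and 91.5 FPKM in Bobcat339 embryos and 99.6 and 133 FPKM in control embryos. These 3 neighbours in the order did not differ beyond their spread, since the controls of USP10 and of UCHL1 alone spanned the means of the other two. USP38 followed at 83.7 and 76.6 FPKM with Bobcat339 and 71.0 and 77.5 FPKM in the controls. USP14 and USP44 came next with overlapping ranges and means of 54.1 and 51.9 FPKM.

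No deubiquitinase transcript passed the test between Bobcat339 and control embryos. Of the 59 members 55 had enough counts to be tested, and 0 of these passed edgeR's quasi-likelihood test at a Benjamini-Hochberg adjusted p of 0.05, as did 0 of 18481 rows in all (0%). The adjusted p was 0.999 for every tested member. DESeq2 and limma-voom called 0 members as well. DESeq2 called 0.0325% of all rows. At an unadjusted p under 0.05 edgeR gave 1 member, USP4, which was lower with Bobcat339, against 740 of all rows (4%); 2.64% of all rows were lower and 1.36% higher at that p. In bulk samples fewer cells of a type and less RNA per cell cannot be told apart.

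The median log2 fold change over the 55 tested members, Bobcat339 over control, was −0.05, beside −0.02 over all rows. Below 0 were 34 members (61.8%), against 52.9% of all rows, and above 0 were 21. By family, 28 of 43 USP members, 2 of 3 UCH members and 4 of 9 OTU members were below 0, with medians of −0.05, −0.17 and 0.03. The absolute log2 fold change was under 0.5 in 49 members and over 1 in 1, USP26. Standard errors ran from 0.24 to 0.74, and the 95% interval lay within 1 log2 unit of 0 for 40 members. For the other 15 a difference of more than 1 log2 unit was within the interval.

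**Figure D2:**
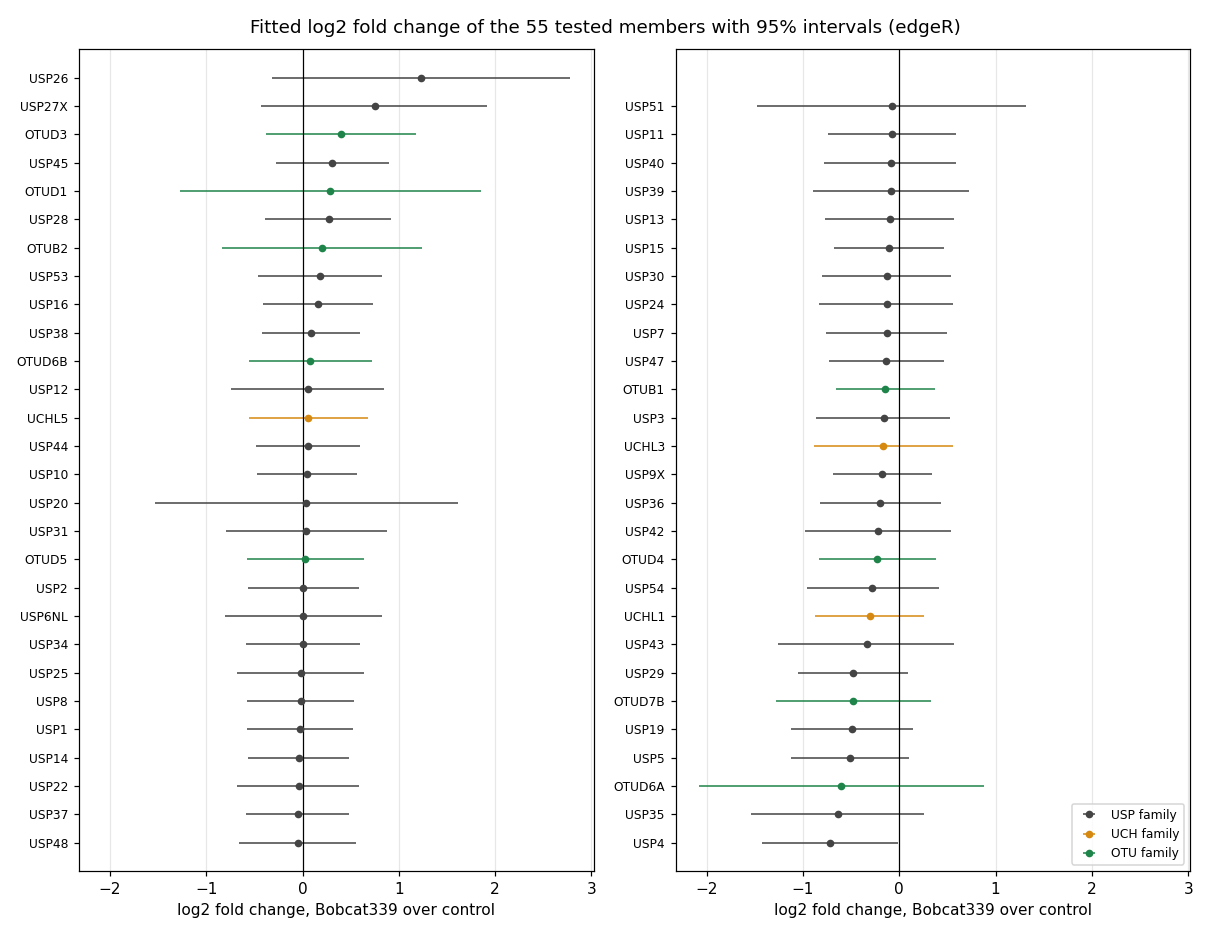
Fitted log2 fold change, Bobcat339 over control (horizontal), for the 55 tested members (vertical), with 95% intervals from edgeR and the family given by colour. Intervals of 54 members cross 0; that of USP4 ends at −0.01, and none passed the adjusted threshold.

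In 18 of the 55 members both Bobcat339 libraries lay on one side of both controls (32.7%), beside 29.3% of all rows. Without regard to direction that share was close to the background. The split by direction was more uneven than over all rows. Both Bobcat339 libraries were below both controls in 14 of the 55 members, beside 2954 of 18481 rows (16%). They were above both controls in 4 of the 55 members, beside 2456 of 18481 rows (13.3%). The difference in this split was not tested. The 4 were USP28, OTUD3, USP27X and USP26, and the 14 included USP4, USP5, USP19, USP29, UCHL1, OTUB1 and USP9X. An uneven split was not particular to the members. On the list of other deubiquitinases 6 of 26 tested genes were lower and 1 higher. Among ubiquitin genes and activating enzymes these numbers were 2 and 0 of 9, and among partners and cofactors 4 and 4 of 30. Ubiquitin-conjugating enzymes had 3 lower and 9 higher of 32. In 33 of the 55 tested members the controls were further apart from each other than the group means were. The share over all rows was not computed, so this count is not called particular to the members.

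USP4, a relative of USP15 and USP11 that acts in signalling and RNA processing, had the smallest p of the members. Its counts were 170 and 219 in the Bobcat339 libraries and 350 and 282 in the control libraries. The means were 13.8 ± 3.09 CPM with Bobcat339 against 22.6 ± 3.46 CPM for the controls (SD, n = 2 each), and the groups did not overlap. The log2 fold change was −0.72 (SE 0.34; 95% interval −1.43 to −0.01; edgeR adjusted p = 0.999).

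USP29 is an imprinted gene expressed from the paternal allele in the mouse, next to Peg3. In these embryos without a paternal genome it was the 8th most abundant member, at 40.8 and 36.0 FPKM with Bobcat339 and 52.0 and 53.3 FPKM in the controls. Its counts, 1568 and 1276 with Bobcat339 against 1957 and 1931 for the controls, did not overlap, and the controls were close together. Its log2 fold change was −0.48 (SE 0.27; 95% interval −1.05 to 0.09), and it lay between −0.59 and −0.34 with each library left out in turn. The row (ENSSSCG00000033319, chromosome 6: 61516685 to 61519361, plus strand) overlapped no other row of the table.

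Among the enzymes of ubiquitin recycling and the proteasome, 5 of 6 tested members lay below 0 on the log2 scale (median −0.13) and 0 passed. USP5, which takes apart unanchored ubiquitin chains, had 117 and 108 CPM with Bobcat339 and 195 and 125 CPM in the controls. Control library 1 stood above the other 3, which were close together. The log2 fold change was −0.51 (SE 0.29), and without control 2 it was −0.76 (SE 0.22) and passed (edgeR adjusted p = 0.0419). It was the only member to pass in the 4 fits that each left out a library; in that fit 2.47% of all rows passed, 1.73% of rows being lower with Bobcat339. Without control 1 USP5 was at −0.16, 0 members passed, and 2.92% of all rows did, 0.887% of rows being lower. USP13, its close relative, was at 3.03 and 4.12 FPKM with Bobcat339 and 3.63 and 3.91 FPKM in the controls, far below USP5 at a mean of 28.7 FPKM.

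USP14 and UCHL5 bind the regulatory particle of the proteasome and trim chains from its substrates. USP14 had 3808 and 3288 counts with Bobcat339 against 3595 and 3583 in the controls, or 259 and 240 CPM against 258 and 257 CPM. Its log2 fold change was −0.04 (95% interval −0.57 to 0.48). UCHL5, which also serves the INO80 remodeller, had 65.6 and 58.1 CPM with Bobcat339 and 65.1 and 53.6 CPM in the controls, with overlap, and a log2 fold change of 0.06 (−0.56 to 0.68). The sign of both depended on single libraries: USP14 was at 0.06 without Bobcat339 2, and UCHL5 at −0.04 without Bobcat339 1 or without control 2.

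The UCH family is small, and its members differed in level and in how they spread. UCHL1 (ENSSSCG00000022945, chromosome 8: 32353246 to 32367348, plus strand) had 157 and 142 CPM with Bobcat339 and 162 and 208 CPM in the controls. Control 2 alone was high, and the other 3 libraries were close together. The log2 fold change was −0.30 (SE 0.27; 95% interval −0.87 to 0.26), −0.47 without control 1 and −0.08 without control 2. UCHL3, a close relative of UCHL1 that also processes the ubiquitin-like protein NEDD8, was lower than UCHL1 per length, at a mean of 27.7 against 106 FPKM. It had 60.3 and 37.6 CPM with Bobcat339 and 70.1 and 39.7 CPM in the controls. In both groups library 1 was far above library 2, so the groups overlapped, with a log2 fold change of −0.17 (SE 0.35), 0.19 without Bobcat339 2 and 0.30 without control 1.

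**Figure D3:**
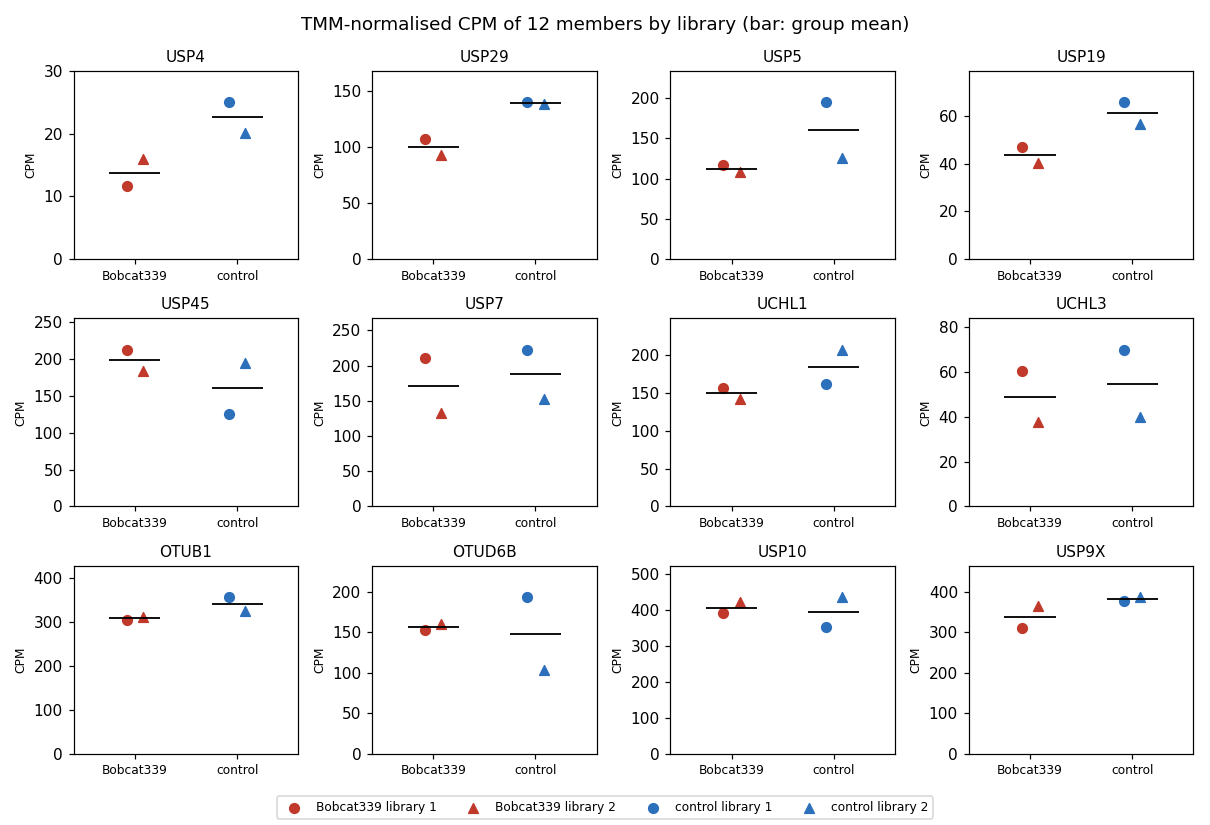
TMM-normalised CPM (vertical, from 0) of 12 members in the 2 Bobcat339 and the 2 control libraries, with the group mean as a bar. Both Bobcat339 points lie below both control points for USP4, USP29, USP5, USP19, UCHL1, OTUB1 and USP9X, and the points overlap for USP45, USP7, UCHL3, OTUD6B and USP10.

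Of the members that act on histones and chromatin, 8 of 10 were tested, with a median log2 fold change of −0.06; 5 were below 0, 3 above, and 0 passed. USP7, which deubiquitinates MDM2, p53, DNMT1 and UHRF1, had 211 and 132 CPM with Bobcat339 and 223 and 152 CPM in the controls. Library 1 was the higher one in each group, by 0.67 on the log2 scale with Bobcat339 and 0.55 in the controls. Its log2 fold change was −0.13 (SE 0.30; 95% interval −0.76 to 0.50), 0.22 without Bobcat339 2 and 0.17 without control 1. Its substrates DNMT1 and UHRF1 had log2 fold changes of −0.16 (SE 0.23) and 0.38 (SE 0.31) and did not pass either. The row of USP7 is ENSSSCG00000007907, chromosome 3: 33753800 to 33810465, plus strand.

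USP16 and USP3 remove ubiquitin from histone H2A. USP16 had 244 and 176 CPM with Bobcat339 and 176 and 200 CPM in the controls. Only Bobcat339 1 stood out, and the log2 fold change was 0.16 (SE 0.27), or −0.10 without Bobcat339 1. USP3 had 108 and 79.4 CPM with Bobcat339 and 139 and 70.2 CPM in the controls, so the controls enclosed both Bobcat339 values. USP44, an H2B deubiquitinase that also guards the spindle checkpoint through CDC20, had 5417 and 4669 counts with Bobcat339 and 4005 and 5472 in the controls, with overlap. Its log2 fold change of 0.06 (SE 0.26) was 0.34 without control 2 and −0.14 without control 1.

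USP22, the deubiquitinase of the SAGA coactivator, had 581 and 649 counts with Bobcat339 and 590 and 660 in the controls, with overlap. Its paralogs USP27X and USP51, which share its SAGA partners, were lower per length, at means of 1.04 and 0.456 FPKM. USP27X had 33 and 27 counts with Bobcat339 against 19 and 16 in the controls. These groups did not overlap, but the log2 fold change of 0.75 (SE 0.56; 95% interval −0.43 to 1.92) rests on few counts. USP22 was at −0.04 (SE 0.30), and at 0.07 without Bobcat339 1 or without control 2. USP36, a nucleolar enzyme, had 47.7 and 46.8 CPM with Bobcat339 and 54.0 and 54.1 CPM in the controls, with a log2 fold change of −0.20 (SE 0.29).

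USP21 and USP49, assigned to histones H2A and H2B, were not tested for lack of counts. USP21 had 2 and 3 counts with Bobcat339 and 5 and 1 in the controls, and USP49 had 7 and 7 against 2 and 15. The USP21 row overlaps that of UFC1 by 6170 bases on the same strand and that of B4GALT3 on the other, and how reads in shared stretches were counted is not stated in the sources used. Of the members with more counts, the row of USP44 overlaps that of METAP2 by 5035 bases, USP14 that of THOC1 by 3775 and USP30 that of ALKBH2 by 1186, each on the other strand. The strand setting is unknown here, so the values of these 3 carry that uncertainty; METAP2 had 1234 and 973 counts with Bobcat339 and 904 and 1058 in the controls, and ALKBH2 had 260 and 222 against 254 and 282. OTUD7A, with 4 and 10 counts against 6 and 6, and USP50, with 1 and 4 against 2 and 3, were the other 2 untested members.

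Of the members of DNA repair and the cell cycle all 10 were tested, 7 below 0 and 3 above, with a median log2 fold change of −0.05 and 0 passing. USP1, which with WDR48 strips ubiquitin from PCNA and FANCD2, had 184 and 187 CPM with Bobcat339 and 211 and 168 CPM in the controls. The controls enclosed both Bobcat339 values, and the log2 fold change was −0.03 (SE 0.26), 0.01 without Bobcat339 2 and 0.15 without control 1. WDR48 was more abundant than USP1 per length, at a mean of 161 against 26.5 FPKM, and had a log2 fold change of −0.03. USP37, an antagonist of cyclin A degradation, was steady at 204 and 190 CPM with Bobcat339 and 206 and 203 CPM in the controls, with a log2 fold change of −0.05, or 0.04 without Bobcat339 2.

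OTUB1 (ENSSSCG00000013045) had 304 and 311 CPM with Bobcat339 and 356 and 325 CPM in the controls. All 4 values were close and did not overlap between the groups, with a log2 fold change of −0.15 (95% interval −0.66 to 0.37; SE 0.24). OTUB2, its paralog, was scarce, with 38 and 38 counts with Bobcat339 and 39 and 26 in the controls, and a log2 fold change of 0.20 (SE 0.49), or −0.03 without control 2. OTUD6B spread widely between the controls alone, at 194 and 104 CPM, while the Bobcat339 libraries had 153 and 161 CPM. Its log2 fold change was 0.08 (SE 0.30), 0.60 without control 1 and −0.27 without control 2.

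USP28, which stabilises MYC and binds the repair protein TP53BP1, had 36.9 and 39.0 CPM with Bobcat339 and 35.8 and 27.4 CPM in the controls. The groups did not overlap, though control 1 was close to the Bobcat339 pair, and the log2 fold change was 0.27 (SE 0.31), 0.47 without control 1 and 0.12 without control 2. OTUD4, a scaffold for repair of alkylated DNA, had 69.6 and 90.3 CPM with Bobcat339 and 89.3 and 97.7 CPM in the controls, with a log2 fold change of −0.23 (SE 0.29), −0.06 without Bobcat339 1 and −0.38 without Bobcat339 2. USP47, which controls the base excision repair polymerase POLB, was at −0.14 (SE 0.28), and at −0.01 without Bobcat339 2. USP11, a BRCA2 partner, was at −0.08 (SE 0.31) and at 0.21 without control 2.

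In the group of endocytosis, signalling and stress 15 of 16 members were tested, 8 below 0 and 7 above, with a median of −0.02 and 0 passing. USP9X, a very large enzyme with many substrates, had 311 and 363 CPM with Bobcat339 and 377 and 386 CPM in the controls. The Bobcat339 libraries were the 2 lowest, with a log2 fold change of −0.18 (95% interval −0.69 to 0.34; SE 0.24). USP8, which acts on endosomes with STAM, had 176 and 156 CPM with Bobcat339 and 160 and 177 CPM in the controls. These ranges are nearly the same, and the log2 fold change was −0.02 (SE 0.26), 0.11 without Bobcat339 2 and 0.08 without control 2. USP2, which acts on MDM2 and cyclin D1, had 174 and 187 CPM with Bobcat339 and 145 and 214 CPM in the controls, which enclosed both. On the log2 scale the difference of 0.01 (SE 0.27) was −0.24 without control 1 and 0.35 without control 2. USP10 had 393 and 422 CPM with Bobcat339 and 352 and 437 CPM in the controls, with a log2 fold change of 0.05 (SE 0.25), or −0.10 without control 1.

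USP19, an enzyme anchored in the endoplasmic reticulum, had 47.1 and 40.2 CPM with Bobcat339 and 65.8 and 56.6 CPM in the controls. These did not overlap, and the log2 fold change was −0.49 (SE 0.30; 95% interval −1.12 to 0.14). OTUD7B, specific for lysine-11 chains, had 95 and 63 counts with Bobcat339 and 114 and 101 in the controls, again without overlap, with −0.48 (SE 0.38); the log2 fold change was −0.75 without Bobcat339 1 and −0.20 without Bobcat339 2. USP30, on the outer mitochondrial membrane, opposes mitophagy. It had 291 and 266 counts with Bobcat339 and 307 and 291 in the controls, with a log2 fold change of −0.13 (SE 0.32). USP15 was at −0.11 (SE 0.27) and OTUD5, an X-linked enzyme of immune signalling, at 0.03 (SE 0.29), or −0.04 without control 2.

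In the higher direction the 5 members with the smallest p and a mean of at least 5 CPM were USP45, OTUD3, USP28, USP16 and USP53. USP45, which acts on the repair nuclease ERCC1, had 213 and 184 CPM with Bobcat339 and 126 and 195 CPM in the controls. Control 1 alone was low, and the log2 fold change of 0.31 (SE 0.28) was 0.03 without control 1 and 0.70 without control 2. USP53, a tight junction protein, showed the same low control 1, with 94.3 and 80.5 CPM with Bobcat339 against 59.3 and 94.8 CPM in the controls; its 0.18 (SE 0.30) was −0.12 without control 1. OTUD3 had 7.70 and 8.38 CPM with Bobcat339 and 6.52 and 5.66 CPM in the controls, with 0.40 (SE 0.37). Among the members in no role group, USP35 had 40 and 66 counts with Bobcat339 and 74 and 90 in the controls, without overlap, and a log2 fold change of −0.64 (SE 0.43), −0.29 without Bobcat339 1 and −1.06 without Bobcat339 2. In the lower direction the 5 were USP4, USP5, USP29, USP19 and OTUD7B.

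On the X chromosome are 7 members (11.9% of members, beside 4.85% of all rows): USP9X, OTUD5, USP11, OTUD6A, USP27X, USP51 and USP26. Their log2 fold changes had a median of −0.08, with 4 below 0 and 3 above. USP26, known from the testis, had the largest log2 fold change of the members, 1.23 (SE 0.73; 95% interval −0.32 to 2.78), from 23 and 11 counts with Bobcat339 against 6 and 8 in the controls; it was 0.66 without Bobcat339 1. OTUD6A had 5 and 26 counts with Bobcat339 and 20 and 27 in the controls. Without Bobcat339 1 its log2 fold change of −0.60 was 0.16, so that 1 library decided its sign.

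The controls differed by more than 1.5-fold in 10 of the 55 tested members (18.2%) and the Bobcat339 libraries in 8 (14.5%), and the 4 pairs across groups in 4 to 11. Over all rows the controls differed by more than 1.5-fold at 38.2% and the Bobcat339 libraries at 17.3%. For the pairs across groups the share was 22.5% to 31.0% of all rows, beside 7.27% to 20.0% of the members. USP39 had 580 and 355 counts with Bobcat339 and 684 and 287 in the controls, and the scarce USP20 had 10 and 16 counts with Bobcat339 and 19 and 6 in the controls. USP3, UCHL3, USP39 and USP12 were among several members, USP7 and USP54 too, with the higher level in library 1 of both groups.

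**Figure D4:**
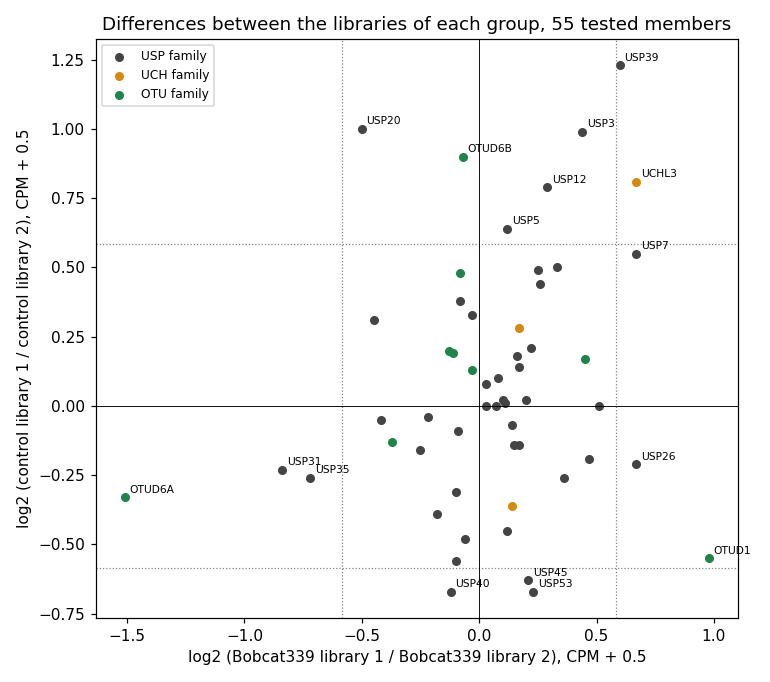
Difference between library 1 and library 2 of the Bobcat339 group (horizontal) and of the control group (vertical), as log2 of CPM + 0.5, for the 55 tested members. Dotted lines mark 1.5-fold; 10 members lie beyond them in the controls and 8 in the Bobcat339 pair, and these are named.

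The rest of the ubiquitin pathway gave no passing gene either. Of the other deubiquitinases and related proteins on the list, 29 of 31 were in the table and 26 were tested. Of these, 22 were below 0, 4 above and 0 passed, with a median log2 fold change of −0.18. The list was not limited to active deubiquitinases, so these are counts of list genes. Control 1 stood high for this list, with a median deviation of 0.23 on the log2 scale, against −0.08 and −0.11 in the Bobcat339 libraries and −0.01 in control 2; its part in the count was not tested. The 3 most abundant were MINDY3, specific for lysine-48 chains (86.5 FPKM; log2 fold change −0.04), EIF3H, a translation initiation factor subunit (56.2 FPKM; −0.17), and PSMD14, the deubiquitinase of the proteasome lid (44.9 FPKM; −0.11). Partners and cofactors had 30 tested members, 11 above and 19 below 0, a median of −0.05 and 0 passing; UBE2D3 (378 FPKM; 0.15), DNMT1 (326 FPKM) and WDR48 (161 FPKM) led.

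Ubiquitin genes and activating enzymes had 9 tested members, 8 below 0 and 1 above, with a median of −0.08 and 0 passing. The polyubiquitin gene UBB was the most abundant of all, at a mean of 5042 FPKM and a log2 fold change of −0.37 (SE 0.22), ahead of SAE1, a SUMO-activating subunit (46.1 FPKM; −0.04). For this list too, control 1 had the highest median deviation, 0.36. Of 32 tested rows of ubiquitin-conjugating enzymes 18 were above 0 and 14 below, with a median of 0.05 and 0 passing. UBE2D3 and UBE2C, the partner of the anaphase-promoting complex (348 FPKM; 0.16), led that list.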

How the data were processed

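The authors deposited raw read counts per row for 4 libraries and FPKM values per library; the counts were tested and the FPKM used only for levels between genes. Per the submitters' processing notes, which give no roles, the tools included HTSeq, HISAT2 2.0.5, DESeq2 1.16.1 and Trimmomatic, and the build was Sscrofa10.2. The table's coordinates overlapped those of the same symbol in RefSeq Sscrofa11.1 for all 58 members that have one, so they were taken as Sscrofa11.1 coordinates. Where FPKM was above 0, the length it implies was a whole number within 0.001 bases, and it was the same in all libraries at rows with 2 or more such values; 5241 rows were at 0 in all libraries. That length was below the table's length column for 33 members and equal to it for 26. The strand setting and annotation are not given in the sources used here. Rows of other genes without a name were named from Ensembl or RefSeq tables. Measurement columns of no sample number 0.

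Replicates differed beyond sampling noise, with a chi-square per row of 11.2 between Bobcat339 libraries and 41.4 between controls. The fit used edgeR 4.0.16 in R 4.3.3 on all rows: filterByExpr (minimum count 10), TMM, glmQLFit, glmQLFTest and Benjamini-Hochberg adjustment over 18481 rows, with Bobcat339 and control libraries as 2 groups of 2. CPM are TMM-normalised. The fitting was tested on simulated counts with known changes, by the size of the estimated log2 fold changes. Those counts had the same spread in both groups, unlike the libraries here. The test therefore does not show which differences these samples could detect. Alternatives were DESeq2 1.42.0, limma-voom (limma 3.58.1), other scalings and filters, fits without each library, other thresholds, and a block for the replicate number. Members and lists were chosen with earlier results of these data known; the role groups are listed by hand and were fixed after the values were seen. Genes named are the 5 with the smallest p in each direction (mean of at least 5 CPM), the 12 most abundant, 25 chosen by role, and the untested. USP2, USP3, USP12, USP13, USP20, USP26, USP27X, USP35, USP39, USP47, USP51, USP54, USP6NL, OTUD6A and the remaining partner genes lie outside this rule and were named after their values were seen. Some genes that the lists would name are not reported here.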

Additional observations from a re-analysis of the deposited data

How the results depend on the processing

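No member was called under any other scaling, filter, threshold, tool or the replicate block; the exception was USP5 without control replicate 2. With 1 library left out the number of members called ran from 0 to 1 and that of all rows from 0 to 586 (586 without control 1, 494 without control 2), the lone library of the reduced group being assumed to vary like the other group. DESeq2 called 6 rows, 0 of them members. The libraries share only a number, and same-numbered libraries deviated with a correlation of 0.188; with the replicate block 44 rows were called, 0 of them members. Groups did not overlap in 18 members in the main fit, 15 without composition scaling and 17 with DESeq2 size factors. There were 16 such members without a filter and 19 with at least 5 CPM in 2 libraries. With a library left out the count ran from 33 to 40 members, but such a fit has 1 library on one side by construction. The share over all rows was computed for the main fit alone, so these alternative counts are not a result about the members. The tools and the block have no such count. Without a filter USP1 was at 0.00 and USP8 at 0.01. Over the 4 fits with a library left out, the log2 fold change ran from −0.03 to 0.52 for OTUB2, −0.13 to 0.07 for USP22, −0.11 to 0.06 for USP14, −0.15 to 0.15 for USP1, −0.12 to 0.11 for USP8, −0.12 to 0.59 for USP53, −0.51 to 0.22 for USP7, −0.10 to 0.42 for USP16, −0.27 to 0.60 for OTUD6B, −0.30 to 0.21 for USP11, −0.55 to 0.30 for UCHL3, −0.04 to 0.21 for UCHL5, −0.11 to 0.04 for USP37, −0.14 to 0.34 for USP44, −0.10 to 0.24 for USP10 and −0.04 to 0.13 for OTUD5; the cause was not tested. The other 16 tested members named by rule kept their sign in every alternative run for them, though with a library left out USP9X ran from −0.25 to −0.08, OTUB1 from −0.18 to −0.08, USP15 from −0.15 to −0.03 and USP30 from −0.15 to −0.06. Among the members named outside the rule, in the same 4 fits, USP2 ran from −0.24 to 0.35, USP3 from −0.54 to 0.42, USP13 from −0.29 to 0.09 and OTUD6A from −2.23 to 0.16. Likewise USP39 ran from −0.55 to 0.67, USP20 from −0.54 to 1.08 and USP12 from −0.27 to 0.53. For USP51 the range was −0.20 to 0.07 and for USP6NL −0.30 to 0.30. USP54 ran from −0.47 to 0.00. USP26, USP27X, USP35 and USP47 kept their sign in these fits.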

Other observations

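Beyond the name pattern, 2 rows without a name in the deposited table are USP46 in the Ensembl gene names and USP32 in RefSeq. USP46, a WDR48 partner related to USP12, had 3726 and 3762 counts in the Bobcat339 libraries and 2982 and 3577 in the control libraries. It stood at 56.0 and 61.2 FPKM with Bobcat339 and 45.7 and 57.0 FPKM in the controls, a level that would place it among the most abundant deubiquitinases, while its relative USP12 was at a mean of 2.32 FPKM. Its log2 fold change was 0.17 (SE 0.25; edgeR adjusted p = 0.999). USP32 had 668 and 708 counts with Bobcat339 and 633 and 607 in the controls, and a log2 fold change of 0.13 (SE 0.30; edgeR adjusted p = 0.999). Both were chosen after their values were seen.

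The ubiquitin gene RPS27A, the proteasome ubiquitin receptor ADRM1 and the signalosome subunit COPS6, which cells use throughout, as well as CDC20, are listed at 0 in all 4 libraries of the table.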
